A study of Homo sapiens with 20 samples.

Results

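Among the 60623 gene identifiers quantified in pancreatic progenitors (PPs), 10 genes were examined that were much lower in PPs lacking the RNA demethylase ALKBH5 (A5-KO) than in wild type (WT) PPs: *TNFSF9*, *CD70*, *MYH14*, *SRRM3*, *SLFN11*, *GLUD2*, *ZSCAN5A*, *ZNF248*, *ZNF470* and *ZNF793*. They were chosen because every A5-KO PP library lay far below the WT libraries at 0 and 1 h of actinomycin D (Act D), because they were low again in A5-KO human islet-like organoids (hILOs), and because they were lost late in WT PPs under Act D. These differences are therefore given as a description with no test. Near absence held for 7 of the 10 genes, in which every A5-KO PP library was at most 10% of the lowest WT library at 0 and 1 h. In all 10, every A5-KO PP library was below the lowest WT library at 0 and 1 h, as in 2.9% of 12830 expressed genes. *GLUD2*, *ZNF470* and *SLFN11* were reduced but not absent, and *SRRM3* was not lower in A5-KO hILOs.

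The 10 genes have no common pathway. *TNFSF9* (4-1BB ligand) and *CD70* (CD27 ligand) encode TNF superfamily ligands, membrane proteins that activated immune cells use to costimulate T lymphocytes. *MYH14* encodes the heavy chain of non-muscle myosin IIC, an actin-based motor of epithelia. *SRRM3* encodes a splicing factor that promotes inclusion of microexons in neurons and endocrine cells. *SLFN11* encodes a Schlafen protein that blocks stressed replication forks, and its silencing is a known source of resistance to DNA-damaging drugs. *GLUD2* is an intronless retrocopy of the mitochondrial glutamate dehydrogenase gene *GLUD1*. *ZSCAN5A*, *ZNF248*, *ZNF470* and *ZNF793* encode C2H2 zinc finger proteins, a large family of DNA-binding proteins that includes many repressors of transposable elements.

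All libraries came from MEL1, a human embryonic stem cell line kept on CF1 mouse feeder cells and differentiated in steps. The methods of the study give the line as MEL1 INSGFP/W, with green fluorescent protein at the insulin gene, which WT and A5-KO would then share. The WT group is the unedited line, and the A5-KO group carries indels made by the nuclease Cpf1 with a pair of crRNAs in the first exon of *ALKBH5*. The knockout came from picked colonies of edited cells, and the labels name a single A5-KO line, so *ALKBH5* loss and any other property of that line cannot be told apart. RNA-seq covered WT and A5-KO PPs at 0, 1, 2 and 3 h of 1 μg/ml Act D, which blocks transcription, and untreated WT and A5-KO hILOs, with 2 libraries for each group and 20 in all. The labels do not say whether replicates came from separate cultures. For its Act D RNA-seq the study counts 2 biological replicates, a term its methods use for independent ones. Errors measure the spread between these libraries only. In these bulk samples, fewer cells of a type and less RNA per cell cannot be told apart.

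PP values are CPM (counts scaled to the library total, not divided by length), and 1 read was worth about 0.03 CPM, since the libraries held between 30516384 and 35206514 reads. hILO values are TPM (scaled to the total and to length), which keep no depth. *ALKBH5* itself was at 149 and 172 CPM in untreated WT PPs, against 19.1 and 18.8 CPM in A5-KO PPs. In hILOs it was at 78.8 and 81.9 TPM in WT, against 4.16 and 3.42 TPM in A5-KO. The 5 markers of pancreatic progenitors summed to between 275 and 1039 CPM in WT PPs and between 277 and 820 CPM in A5-KO PPs at 0 and 1 h. These ranges pool untreated libraries with 1 h of Act D, over which *PDX1* in WT went from 156 to 200 CPM down to 43.7 to 50.5 CPM. At 0 h alone, *ONECUT1* (5.33 to 7.23 against 17.1 to 18.7 CPM) and *NKX6-1* (241 to 253 against 289 to 367 CPM) were lower in A5-KO than in WT. *PDX1*, *SOX9* and *MNX1* overlapped. The 4 hepatocyte markers (*ALB*, *AFP*, *APOA1*, *TTR*) summed to between 690 and 796 CPM in WT and between 1532 and 1782 CPM in A5-KO at 0 and 1 h, and the 3 mesenchyme markers to between 39.3 and 63.9 CPM and between 124 and 131 CPM. Their part in the results below was not tested.

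Of the 8 WT PP libraries, 3 stood apart and bear on the Act D course. By the same limit of 10% applied to both lines at 0 and 1 h, 14 genes were lost in A5-KO (7 of them among the 10 genes) and 5 were lost in WT. The median level of the 14 genes, as a percent of the WT mean at 0 and 1 h, was 71.9% in WT at 2 h replicate 1 but 27.5% in replicate 2, and 14.7% and 12.3% at 3 h. The 7 of these genes outside the 10 gave 78.9%, 20.1%, 15.7% and 12.3% in the same libraries. The 5 genes lost in WT moved the other way. Their median, as a percent of the A5-KO mean, was between 2.2% and 4.3% in WT at 0 and 1 h. It was 1.1% and 8.1% after 2 h of Act D, then 17.3% and 11.4% after 3 h. *MX2*, an interferon-induced antiviral gene and the one with the highest mean of the 5, ranged from 0.26 to 0.59 CPM in WT and from 14.0 to 21.0 CPM in A5-KO at 0 and 1 h, and reached 3.22 and 2.09 CPM in the WT libraries at 3 h. In all 5 genes both WT libraries at 3 h were above every WT library at 0 and 1 h. The 5 were chosen for low WT values at 0 and 1 h, which favours higher values in later libraries. For ENSG00000286058 the rise rests on few reads, with 0.06 and 0.095 CPM at 3 h against at most 0.029 CPM before. The pancreatic progenitor markers summed to between 187 and 414 CPM in WT at 2 h and between 329 and 341 CPM at 3 h. In A5-KO at 2 and 3 h they summed to between 86.6 and 143 CPM. What set the WT libraries at 3 h and replicate 2 at 2 h apart was not tested. No result at 0 h or in hILOs uses them.

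Of the 10 genes, 6 lie on chromosome 19 (GRCh38, GENCODE gene bodies). *TNFSF9* (6531026 to 6535924, plus strand) and *CD70* (6583183 to 6604103, minus strand) are separated by 47258 bases. *ZNF793* (37506939 to 37548762, plus), *MYH14* (50188186 to 50310542, plus), *ZSCAN5A* (56219670 to 56368383, minus) and *ZNF470* (56567468 to 56588911, plus) are spread along the long arm. The others are *SRRM3* on chromosome 7 (76201896 to 76287288, plus), *ZNF248* on 10 (37776526 to 37858106, minus), *SLFN11* on 17 (35350305 to 35373701, minus) and *GLUD2* on X (121047610 to 121050094, plus). Of the 13 genes that were at 1 CPM or more in every WT PP library at 0 and 1 h and at most 10% of that in A5-KO, 7 (53.8%) lie on chromosome 19, beside 849 of 12830 expressed genes (6.62%). Symbols beginning with ZNF or ZSCAN made up 4 of the 13 (30.8%) and 381 of the 12830 (2.97%). No test is attached to these shares, since 7 of the 13 are among the 10 chosen genes.

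Promoters (250 bases before to 50 after the start, RefSeq, GRCh38.p14) were listed for 9 of the 10 genes. CpG dinucleotides, the sites of DNA methylation, were counted because the genes were low together. With 1 promoter per gene, the one nearest the GENCODE start, the 9 held 16 to 32 CpGs (median 27), and the observed CpG number was 0.68 to 0.96 of that expected from base composition. The median was 14 CpGs over all 35116 promoters and 25 over the 14602 promoters of genes expressed in WT PPs, and 74% of the latter held at least 16. DNA methylation was not measured here. The promoters of 4 genes are shown 5′ to 3′ with CpGs in capitals, for the ligand with the highest WT level per length in hILOs, the myosin with 1 read in all A5-KO PP libraries, the zinc finger gene with none, and the gene that kept the most reads in A5-KO. The *TNFSF9* promoter spans chr19:6530776-6531075 on the plus strand, the *MYH14* promoter chr19:50203372-50203671 on the plus strand, the *ZNF248* promoter chr10:37858054-37858353 on the minus strand and the *SLFN11* promoter chr17:35373572-35373871 on the minus strand. The *MYH14* start in RefSeq lies 15436 bases inside the GENCODE gene body.
TNFSF9: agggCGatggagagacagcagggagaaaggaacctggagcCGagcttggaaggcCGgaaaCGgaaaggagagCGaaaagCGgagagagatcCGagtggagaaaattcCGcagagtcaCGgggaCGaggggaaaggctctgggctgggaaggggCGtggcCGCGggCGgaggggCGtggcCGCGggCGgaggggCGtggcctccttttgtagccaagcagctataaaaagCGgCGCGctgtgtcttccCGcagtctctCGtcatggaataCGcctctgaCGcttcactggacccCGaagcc
MYH14: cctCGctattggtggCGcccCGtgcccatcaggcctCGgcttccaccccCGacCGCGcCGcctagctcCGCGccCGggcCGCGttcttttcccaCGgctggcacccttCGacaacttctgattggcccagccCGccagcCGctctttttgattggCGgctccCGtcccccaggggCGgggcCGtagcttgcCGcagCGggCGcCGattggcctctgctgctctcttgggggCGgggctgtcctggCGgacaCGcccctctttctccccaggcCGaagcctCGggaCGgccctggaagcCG
ZNF248: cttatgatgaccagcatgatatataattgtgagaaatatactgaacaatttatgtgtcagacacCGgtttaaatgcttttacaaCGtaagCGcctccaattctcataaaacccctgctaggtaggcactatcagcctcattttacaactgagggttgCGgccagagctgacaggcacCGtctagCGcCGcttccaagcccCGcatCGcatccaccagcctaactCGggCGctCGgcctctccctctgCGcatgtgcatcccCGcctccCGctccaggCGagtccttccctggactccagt
SLFN11: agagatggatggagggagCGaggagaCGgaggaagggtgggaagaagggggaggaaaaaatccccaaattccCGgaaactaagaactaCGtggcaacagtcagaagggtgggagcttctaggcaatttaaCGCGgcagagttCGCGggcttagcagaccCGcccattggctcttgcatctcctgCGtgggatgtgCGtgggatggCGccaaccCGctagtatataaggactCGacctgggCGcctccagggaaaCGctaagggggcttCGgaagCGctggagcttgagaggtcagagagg
These windows held 27 CpGs (*TNFSF9*), 32 (*MYH14*), 16 (*ZNF248*) and 18 (*SLFN11*), and no link to the levels in A5-KO was tested. Another *ZNF248* promoter listed in RefSeq, whose start lies 496 bases from the GENCODE start, held 34.

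*TNFSF9* had the largest difference of the 10 at 0 h on the log2(CPM + 1) scale. As a percent of the WT mean at 0 h, *MYH14* (0.13%) and *ZNF248* (0%) were lower in A5-KO. *TNFSF9* was at 42.5 and 70.4 CPM in untreated WT PPs, then 41.9 and 29.3 CPM after 1 h of Act D. The 8 A5-KO PP libraries had a lowest value of 0, a median of 0.015 and a highest of 0.23 CPM, which came to 17 reads in all, and 4 libraries had no read. At 0 h the A5-KO mean was 0.16% of the WT mean (0.092 ± 0.089 against 56.5 ± 19.7 CPM, s.d., n = 2), a difference that rests on 6 reads in A5-KO. *CD70* was at 7.52 and 12.2 CPM in untreated WT PPs, then 12.5 and 11.4 CPM after 1 h of Act D. Its 8 A5-KO libraries ranged from 0.17 to 0.57 CPM with a median of 0.28 CPM, and each had reads.

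*MYH14* and *SRRM3* followed the same order. *MYH14* was at 8.497 and 13.4 CPM in untreated WT PPs, then 11.9 and 9.34 CPM after 1 h of Act D, and the 8 A5-KO libraries together held 1 read. *SRRM3* was at 16.1 and 22.6 CPM in untreated WT PPs, then 21.4 and 17.6 CPM after 1 h of Act D. Its A5-KO libraries ranged from 0.088 to 0.51 CPM, with a median of 0.21 CPM. The *SRRM3* mean at 0 h in A5-KO was thus 1.09% of WT. The neuronal markers *ELAVL3*, *STMN2* and *SNAP25*, from a tissue known for this gene, summed to 5.61 to 6.35 CPM in WT and 5.84 to 8.00 CPM in A5-KO at 0 and 1 h.

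*SLFN11* was the gene least affected. It was at 30.9 and 25.1 CPM in untreated WT PPs, then 24.96 and 27.1 CPM after 1 h of Act D, and the 8 A5-KO libraries ranged from 3.55 to 8.14 CPM (median 6.40 CPM). At 0 h A5-KO was at 27.9% of WT (7.81 ± 0.47 against 28.0 ± 4.11 CPM, s.d., n = 2). The groups were well apart, but 1614 reads remained in the A5-KO libraries, so *SLFN11* was not absent.

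*GLUD2* was at 4.62 and 7.90 CPM in untreated WT PPs, then 5.95 and 6.77 CPM after 1 h of Act D, and its A5-KO libraries ranged from 0.14 to 0.73 CPM (median 0.39 CPM). Reads of *GLUD2* and its parent *GLUD1* can be split between the near-identical copies, so its level is uncertain. *GLUD1* did not share the difference. It was at 142 and 140 CPM in WT, against 165 and 167 CPM in A5-KO at 0 h (log2 difference 0.23, standard error 0.07, limma adjusted *p* = 0.12). *GLUD2* came to 3.25% and 5.66% of *GLUD1* in the WT libraries at 0 h and to 0.24% and 0.21% in A5-KO.

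The zinc finger genes were at low levels in WT as well. *ZNF248* was at 5.83 and 5.95 CPM in untreated WT PPs, then 4.35 and 4.94 CPM after 1 h of Act D, and no A5-KO PP library held a read. Against the limit of 3 reads that a count of 0 allows in 1 library, its WT level at 0 h was at least 65.2-fold higher, counting error only. *ZSCAN5A* was at 5.83 and 8.24 CPM in untreated WT PPs, against 0.28 and 0.38 CPM in A5-KO, with 2 A5-KO libraries at 0 at later times. *ZNF793* was at 5.25 and 4.86 CPM in untreated WT PPs, against 0.12 and 0.09 CPM in A5-KO. *ZNF470* kept more, with 5.60 and 5.92 CPM in WT, against 0.43 and 0.73 CPM in A5-KO at 0 h (10.1% of WT). Exons of *MYH14*, *ZSCAN5A*, *ZNF248* and *ZNF793* overlap those of other annotated genes over at most 7.4% of the exon length for any 1 partner, and whether the counting used strand is not given in the sources used here.

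On the log2(CPM + 1) scale at 0 h, the difference (A5-KO minus WT) ran from -5.68 (standard error 0.23) for *TNFSF9* to -1.71 (0.15) for *SLFN11*. All 10 met the call used for every gene (limma, Benjamini-Hochberg adjusted *p* below 0.05 and over 1.5-fold), as did 157 of 13911 genes tested, or 1.13%. The median difference was -2.68 over the 10 and 0.03 over all genes tested. Blocking by replicate number raised the 157 genes to 266. The rule used this contrast, so nothing is read from the count of the 10. Ranked by the highest of the 8 A5-KO libraries as a percent of the lowest WT library at 0 and 1 h, the 10 lay within the first 15 of 11725 protein-coding genes. Just inside were *GLUD2* (15.7%), *ZNF470* (27.8%) and *SLFN11* (32.6%), and just outside were *ZNF71* (37.7%) and *CLMP* (40.6%). *ZNF823* (0%), *CLEC11A* (2.5%), *PCDHGB5* (2.6%), *ALKBH5* (15.3%) and *AOC1* (22.6%) lay within that range without being among the 10.

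**Figure D1:**
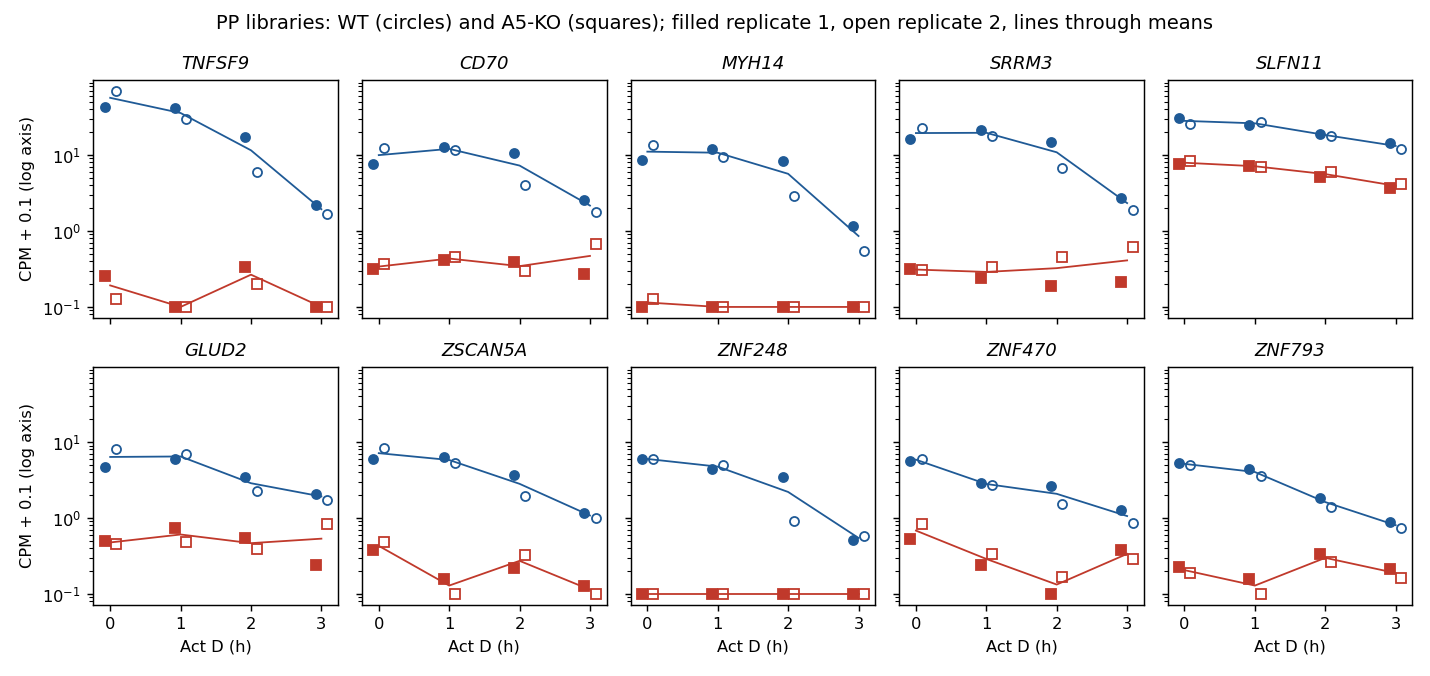
CPM of each of the 10 genes in the 16 PP libraries (y axis, CPM + 0.1 on a log axis) against time in Act D (x axis, h). WT libraries are blue circles and A5-KO libraries red squares, replicate 2 is open, and lines join the means of 2 libraries. Every A5-KO library lies below every WT library of the same gene, and at 0 h *SLFN11* is the gene whose 2 lines are closest.

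In hILOs, made from the same lines at a later stage, 9 of the 10 genes had both A5-KO libraries below both WT libraries, and 6 had them at most 10% of the lower WT library. The same held for 40.3% and 0.242% of the 12830 genes expressed in WT PPs. Loss in hILOs was part of the choice, so these counts are a description. The 5 islet endocrine markers summed to between 34178 and 36492 TPM in WT hILOs and between 26002 and 27210 TPM in A5-KO hILOs, and the hepatocyte markers to between 17025 and 17352 TPM and between 29847 and 30189 TPM. Most of the hepatocyte difference was *TTR* (7527 to 7550 TPM in WT, 18674 to 18749 TPM in A5-KO). *ALB* (929 to 934 against 1846 to 1913 TPM) and *AFP* (5535 to 5732 against 6255 to 6446 TPM) added less. *APOA1* overlapped (3029 to 3141 against 2997 to 3155 TPM). The mesenchyme markers summed to between 3.01 and 6.72 TPM in the WT libraries, against 21.2 to 23.6 TPM in A5-KO. The 3 pluripotency markers summed to between 14.8 and 15.7 TPM and between 4.18 and 4.38 TPM, nearly all of it *SOX2* (14.7 to 15.7 TPM and 4.18 to 4.32 TPM). *POU5F1* and *NANOG* were at or below 0.058 TPM in every hILO library. The part of these markers in the hILO results was not tested.

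*TNFSF9* was the highest of the 10 per length in WT hILOs, at 53.2 and 55.9 TPM, and was listed at 0 and 0.058 TPM in A5-KO. *CD70* was at 15.3 and 12.7 TPM in WT, against 0 and 0.049 TPM in A5-KO. *MYH14* was at 2.81 and 2.71 TPM in WT and was listed at 0 in both A5-KO libraries. These 3 genes, nearly absent from A5-KO PPs, were thus at or near 0 again.

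*GLUD2* was at 27.7 and 29.4 TPM in WT hILOs, against 10.7 and 12.0 TPM in A5-KO (39.8% of WT), a smaller relative difference than in PPs. It came to 12.0% and 12.8% of *GLUD1* in WT hILOs and to 4.29% and 5.77% in A5-KO. *SLFN11* was at 15.3 and 14.0 TPM in WT, against 6.38 and 5.26 TPM in A5-KO (39.7% of WT). The A5-KO libraries of both genes were far above 0, so reduction rather than absence describes them at this stage. *SRRM3* had overlapping groups, with 1.94 and 2.201 TPM in WT, against 1.60 and 4.16 TPM in A5-KO, a log2(TPM + 1) difference of 0.26 (standard error 0.38). The data thus go against its description as a gene lost at both stages.

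The zinc finger genes were near the lower end in WT hILOs. *ZNF470* was at 0.71 and 0.81 TPM in WT, against 0.01 and 0.05 TPM in A5-KO, and *ZNF793* at 0.56 and 0.46 TPM in WT and 0.01 TPM in both A5-KO libraries. *ZSCAN5A* (0.87 and 0.20 TPM in WT, then 0.06 and 0.005 TPM in A5-KO) and *ZNF248* (0.52 and 3.21 TPM in WT, listed at 0 in A5-KO) varied between the WT replicates by more than 4-fold. By mean WT level the order was *TNFSF9*, *GLUD2*, *SLFN11*, *CD70*, *MYH14*, *SRRM3*, *ZNF248*, *ZNF470*, *ZSCAN5A* and *ZNF793*. *SLFN11* and *CD70* overlapped, the range of *ZNF248* overlapped those of *MYH14*, *SRRM3* and the 3 genes below it, and *ZSCAN5A* overlapped *ZNF470* and *ZNF793*, which did not overlap each other. The 4 zinc finger genes fell under the minimum mean of 1 TPM and were not fitted. Of the 6 that were fitted, 5 met the call for lower, beside 4.09% of 17300 genes, and *SRRM3* did not. Without 1 hILO library the 707 genes called lower fell to between 96 and 203, and *SLFN11* lost the call whichever of the 4 was left out, *GLUD2* when either WT library was left out and *MYH14* when either A5-KO library was left out. Without either WT library *MYH14* fell under the minimum mean and could not be fitted. Blocking by replicate number lowered the 707 genes to 385.

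**Figure D2:**
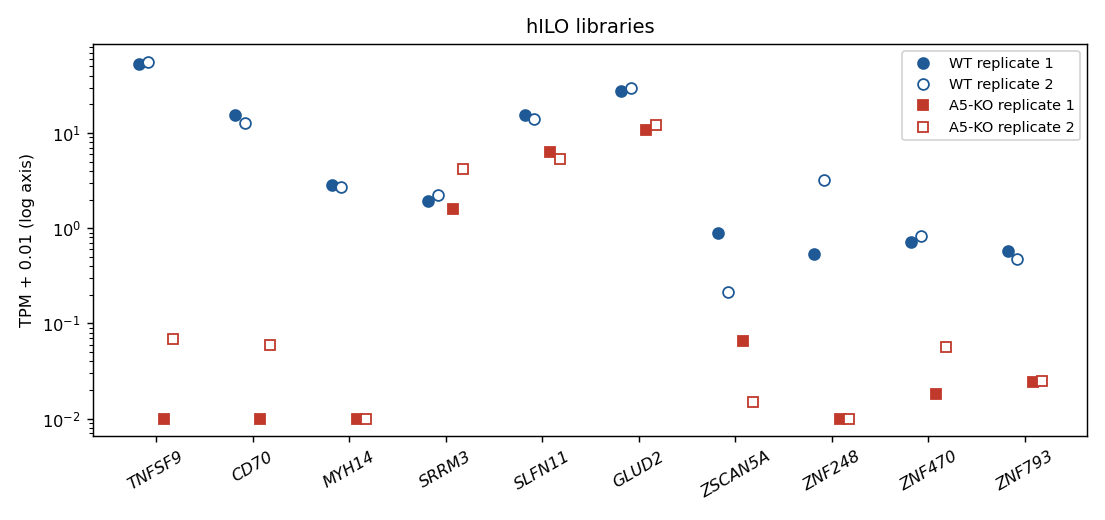
TPM of each of the 10 genes in the 4 hILO libraries (y axis, TPM + 0.01 on a log axis). WT libraries are blue circles and A5-KO libraries red squares, and replicate 2 is open. *MYH14* and *ZNF248* lie at the bottom of the axis in both A5-KO libraries and *TNFSF9* and *CD70* in replicate 1, *SLFN11* and *GLUD2* are at 39.7% and 39.8% of WT, and *SRRM3* overlaps.

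In WT PPs, most of the genes were near their starting level after the first hour of Act D. In WT at 1 h, *CD70* was at 126% and 116% of its 0 h mean, *SRRM3* at 111% and 90.8%, *MYH14* at 108% and 85.1% and *GLUD2* at 95.0% and 108%. *SLFN11* was at 89.0% and 96.5%, *ZSCAN5A* at 88.6% and 73.5%, *ZNF793* at 85.9% and 69.4%, *ZNF248* at 73.8% and 84.0% and *TNFSF9* at 74.2% and 51.9%. *ZNF470* was lowest, at 48.2% and 45.8%, and was the only one of the 10 that met the call for lower at 1 h, beside 13.1% of 13620 genes. Those were 1778 genes, and between 268 and 1087 when 1 WT library at 0 or 1 h was left out. No gene of the 10 had both libraries at 1 h at or below 25% of the lower 0 h library, beside 0.686% of the 12830 expressed genes. CPM are shares of the RNA that remains, so they do not give absolute decay.

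Lower levels followed at 2 and 3 h, the lowest of them in the libraries that stood apart. In WT 2 h replicate 1, which did not stand apart, *TNFSF9* was already at 29.9%, *ZNF793* at 34.3%, *ZSCAN5A* at 50.6% and *GLUD2* at 53.8% of the 0 h mean. At 2 h, *TNFSF9* was at 16.9 CPM in WT replicate 1 and 5.94 CPM in replicate 2, *CD70* at 10.4 and 3.92 CPM, *MYH14* at 8.31 and 2.79 CPM and *SRRM3* at 14.8 and 6.68 CPM. *ZNF248* differed most, with 3.40 and 0.80 CPM. In 5 of the 10 genes replicate 2 was at most 50% of replicate 1, beside 0.421% of expressed genes. *SLFN11* (19.001 and 17.465 CPM) and *ZNF793* (1.73 and 1.31 CPM) had replicates closer together, while *GLUD2* (3.37 and 2.17 CPM), *ZSCAN5A* (3.56 and 1.87 CPM) and *ZNF470* (2.54 and 1.43 CPM) were between.

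By 3 h, WT libraries held 2.09 and 1.58 CPM of *TNFSF9*, 3.7% and 2.8% of the 0 h mean. *MYH14* was at 1.07 and 0.44 CPM (9.8% and 4.0%), *ZNF248* at 0.42 and 0.47 CPM (7.1% and 8.0%) and *SRRM3* at 2.66 and 1.80 CPM (13.7% and 9.3%). *CD70* was at 2.45 and 1.68 CPM, *ZSCAN5A* at 1.07 and 0.88 CPM and *ZNF793* at 0.78 and 0.63 CPM. These 7 genes, and no others of the 10, had both libraries at 3 h at or below 25% of the lower 1 h library, as did 0.101% of expressed genes. *GLUD2* (2.00 and 1.64 CPM), *ZNF470* (1.16 and 0.76 CPM) and *SLFN11* (14.4 and 11.8 CPM) were higher than that. They are the same 7 genes of the 10 whose A5-KO PP libraries were at 10% or less of WT. Both the low A5-KO values and the late loss were used to choose the 10, so this overlap is only a description.

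Between 1 h and 3 h in WT, the log2(CPM + 1) difference ran from -3.68 (standard error 0.40) for *TNFSF9* to -0.93 (0.23) for *ZNF470*, and the 10 genes were among the lowest 24 of 13620 genes. *PCDHGB5* ranked 2nd, *ALKBH5*, the edited gene, ranked 8th with -1.65 (0.17), and it was at 48.3 and 33.7 CPM at 3 h. Only 5 genes met the call for lower in this contrast (0.0367% of those tested, and 0.0587% in either direction), 3 of them among the 10 (*TNFSF9*, *SRRM3*, *ZNF793*), and the others were *ALKBH5* and *C2orf27A*. That count was 0 or 1 when any 1 WT library at 0, 1 or 3 h was left out and 19 or 20 when either library at 2 h was. Blocking by replicate number gave a count of 0. The late loss was used to choose the 10, so nothing is read from their ranks or calls here. Without the WT libraries at 3 h and replicate 2 at 2 h, the course ends at 2 h replicate 1. There the 10 genes were at 29.9% (*TNFSF9*) to 105% (*CD70*) of their 0 h means, and *ALKBH5* was at 66.7%. The cause of the later loss cannot be told apart from what set these libraries apart.

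A course in A5-KO could be followed with many reads only for *SLFN11*. In A5-KO it went from 7.48 and 8.14 CPM (0 h) to 7.13 and 6.89 CPM (1 h), 5.11 and 5.90 CPM (2 h) and 3.55 and 4.11 CPM (3 h), so that 49.0% of the 0 h mean was left. In WT 46.6% was left at 3 h, and 67.8% in replicate 1 at 2 h. The difference between the lines in this course was not tested.

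**Figure D3:**
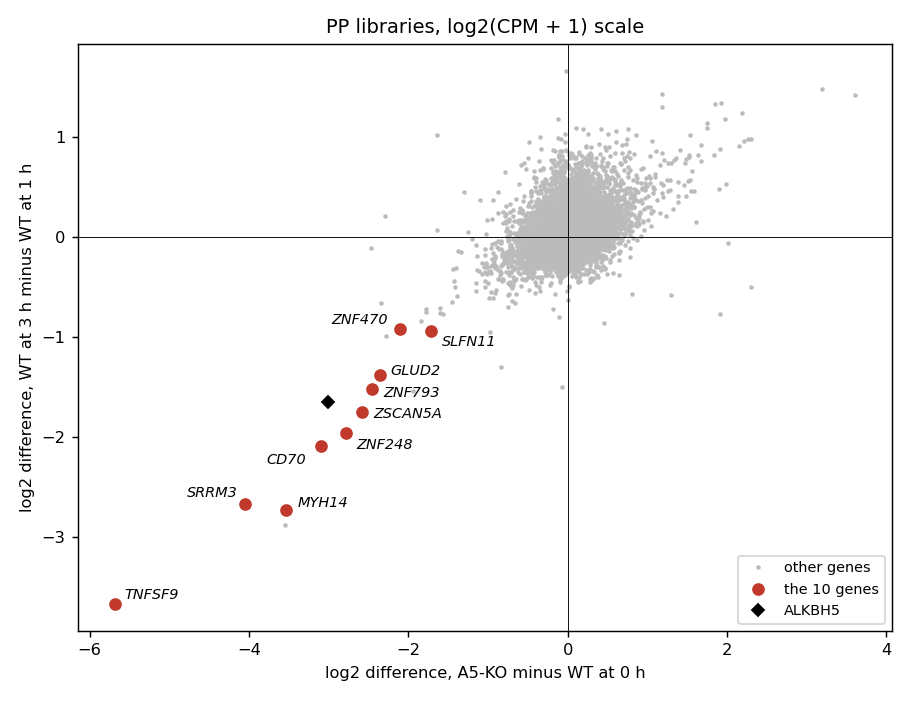
Each point is a gene tested in both contrasts of the PP libraries on the log2(CPM + 1) scale, with the difference between A5-KO and WT at 0 h on the x axis and between WT at 3 h and WT at 1 h on the y axis. No library enters both differences, but both were part of the choice of the 10 genes. The 10 genes (red) run from *SLFN11* (-1.71, -0.95) to *TNFSF9* (-5.68, -3.68), *ALKBH5* (black diamond) is at -3.01 and -1.65, and the other genes are grey.

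Genes near the 10 were chosen by position and not by value, and so can be tested. Of 105 protein-coding genes within 250 kb, 50 were tested in PPs at 0 h, of which 3 were called lower and none higher (6.0%, beside 1.13% lower and 1.57% higher over all genes). The median log2 difference was -0.05 over these neighbours and 0.03 over all genes. *ZNF71*, another C2H2 zinc finger gene and 6389 bases from *ZNF470*, was at 13.1 and 13.8 CPM in WT, against 2.102 and 1.82 CPM in A5-KO (log2 difference -2.29, standard error 0.16, limma adjusted *p* = 9.6e-05). The others called were near *SRRM3*. *HSPB1*, a small heat shock protein gene 15385 bases away, was at 74.9 and 83.1 CPM in WT, against 40.7 and 53.0 CPM in A5-KO (-0.75, 0.13, limma adjusted *p* = 0.012), and *SSC4D*, a scavenger receptor gene, at 8.81 and 9.26 CPM and 3.99 and 3.78 CPM (-1.04, 0.16, limma adjusted *p* = 0.0068).

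Most nearest neighbours were not called in PPs. Next to *MYH14*, the nuclear receptor gene *NR1H2*, 19111 bases away, was at 29.0 and 24.8 CPM in WT, against 26.3 and 26.5 CPM in A5-KO (log2 difference -0.02, standard error 0.12). *TUBB4A*, a tubulin gene 28178 bases from *TNFSF9*, was at 14.0 and 14.7 CPM in WT, against 14.2 and 15.7 CPM in A5-KO (0.05, 0.13). *C3*, on the far side of *CD70*, was at 27.5 and 29.2 CPM and 30.9 and 35.4 CPM (0.21, 0.11). The nearest tested neighbours of *ZNF793* in PPs were *ZNF571* (-0.20, 0.19), 6020 bases away, and *ZNF570* (-0.20, 0.18), 18287 bases away. *ZNF25* near *ZNF248* (-0.01, 0.22), *ZNF444* near *ZSCAN5A* (-0.19, 0.09), *MDH2* near *SRRM3* (0.06, 0.07), *ZNF473* near *MYH14* (-0.21, 0.13), and *SLFN12* (0.23, 0.15) and *SLFN5* (-0.10, 0.23) on either side of *SLFN11* were not called either. *TNFSF14*, the next TNF ligand gene on chromosome 19, 57150 bases from *CD70*, was at 0 or close to 0 in both lines.

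In hILOs, 51 neighbours were tested, of which 7 were called lower and none higher (13.7%, beside 4.09% lower over all genes). *ZNF71* was called again, at 4.83 and 5.11 TPM in WT, against 0.56 and 0.41 TPM in A5-KO (log2 difference -2.01, standard error 0.18, limma adjusted *p* = 0.01), as was *SSC4D* (-0.76, 0.14, 0.042). *TUBB4A* was at 7.39 and 8.55 TPM in WT, against 3.19 and 3.22 TPM in A5-KO (-1.09, 0.14, limma adjusted *p* = 0.022). *GARIN5A* (-1.30), *JOSD2* (-0.66) and *POLD1* (-0.59), the latter encoding a DNA polymerase delta subunit, lie on the same side of *MYH14*, and *SLFN13* (-1.46) lies beside *SLFN12* near *SLFN11*. *HSPB1* was not called in hILOs, at 199 and 193 TPM in WT, against 212 and 225 TPM in A5-KO. Leaving out any 1 hILO library left none of the 7 called, and blocking by replicate number gave 3 called neighbours.

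Relatives and partners of the 10 genes gave few calls. The list held 48 genes, called relatives for short, of which 9 belong to zinc finger corepression or to DNA methylation and its removal. In PPs at 0 h, 29 were tested, of which none was called lower and 1 higher (3.45%, beside 2.7% in either direction over all genes). Blocking by replicate number gave 3 called relatives. The one called without it was *TNFSF4* (OX40 ligand), at 20.0 and 18.3 CPM in WT, against 40.0 and 36.1 CPM in A5-KO (log2 difference 0.95, standard error 0.12, limma adjusted *p* = 0.002). The receptor of *TNFSF9*, *TNFRSF9*, was not called (-0.21, 0.20), and *CD27*, the receptor of *CD70*, was at or below 0.06 CPM at 0 h in both lines. The other non-muscle myosin heavy chains, *MYH9* (-0.10, 0.06) and *MYH10* (0.01, 0.07), and the splicing relatives *SRRM1* (-0.12, 0.08) and *SRRM2* (-0.06, 0.07) were not called. *TRIM28*, the corepressor that many zinc finger repressors recruit, was at 0.14 (0.08), and the DNA methyltransferases *DNMT1* (0.10, 0.08), *DNMT3A* (0.17, 0.09) and *DNMT3B* (0.09, 0.13) were not called.

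In hILOs, 33 of the 48 were tested, of which 3 were called lower and 2 higher (15.2%, beside 6.79% in either direction over all genes). Of the 3, 2 (*UHRF1* and *TET2*) were among the 9 genes of corepression and DNA methylation. *SLFN13*, a Schlafen RNase gene, was at 2.07 and 2.77 TPM in WT, against 0.30 and 0.18 TPM in A5-KO (log2 difference -1.46, standard error 0.23, limma adjusted *p* = 0.031). *UHRF1*, which guides maintenance of DNA methylation, was at 9.82 and 9.24 TPM in WT, against 4.83 and 4.65 TPM in A5-KO (-0.88, 0.12, 0.023), and *TET2*, a 5-methylcytosine dioxygenase gene, at 3.06 and 2.80 TPM and 0.83 and 0.81 TPM (-1.11, 0.18, 0.034). The ligand genes *TNFSF12* (0.79, 0.15, limma adjusted *p* = 0.043) and *TNFSF15* (0.71, 0.11, 0.029) were higher. None of these 5 remained called when any 1 hILO library was left out, and blocking by replicate number gave 0 called relatives.

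Across the 16 PP libraries, each of the 10 genes followed the mean of the other 9, with Pearson's *r* from 0.943 (*SLFN11*) to 0.996 (*TNFSF9*). The genes outside the 10 whose pattern was most like their mean, among 13814 genes at 1 CPM or more in WT at 0 h, were *PCDHGB5* (*r* = 0.991), ENSG00000288075 (0.979), *CLMP* (0.979), *C2orf27A* (0.974) and *ALKBH5* (0.968). Over the 13 libraries without WT at 3 h and WT at 2 h replicate 2 the values were 0.992, 0.982, 0.996, 0.983 and 0.983. All points share the same libraries, so *r* mostly reflects the difference between the lines and is a description. *PCDHGB5*, a gamma protocadherin whose locus shares exons with its relatives, was at 10.7 and 15.8 CPM in untreated WT PPs, against 0.28 and 0.12 CPM in A5-KO.

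The hILO values of these genes had no part in their choice. *C2orf27A*, a long non-coding RNA with no read in any A5-KO PP library, was at 1.49 and 1.25 TPM in WT hILOs and listed at 0 in both A5-KO libraries. *PCDHGB5* was not called, with 12.7 and 13.1 TPM in WT, against 8.85 and 9.91 TPM in A5-KO (log2 difference -0.43, standard error 0.11, limma adjusted *p* = 0.078). *CLMP*, an adhesion molecule gene, was lower in A5-KO PPs (18.1 and 18.5 against 48.8 and 54.7 CPM at 0 h) but was called higher in A5-KO hILOs (36.3 TPM in both libraries against 21.6 and 22.9 TPM, 0.68, 0.07, limma adjusted *p* = 0.013). Of the 13 genes nearly absent from A5-KO PPs, the 6 outside the 10 all had both A5-KO hILO libraries below both WT libraries (40.3% of expressed genes), and 4 of the 6 had them at most 10% of WT (0.242%). Those 4 were *C2orf27A*, *ZNF823*, *CLEC11A* and ENSG00000285876. Of the 6, ENSG00000288075 was near 0 in both lines (0.01 and 0.016 TPM in WT, against 0 and 0.001 TPM in A5-KO). Its order in hILOs therefore says little. *ZNF823*, a zinc finger gene on chromosome 19, was at 1.67 and 2.21 TPM in WT hILOs and *CLEC11A*, a growth factor gene, at 0.68 and 0.65 TPM, and both were listed at 0 in both A5-KO libraries.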

How the data were processed

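RNA-seq of 16 PP and 4 hILO libraries of the MEL1 line (MEL1 INSGFP/W in the study's methods) was used. For PPs, the authors ran fastp and HISAT2 2.1.0 (GRCh38) and deposited CPM for each gene after removing spike-ins. For hILOs, the authors deposited TPM for each gene from StringTie. The annotation release, the read counter and its use of strand are not given in the sources used here. Of the identifiers, 60369 of 60623 (PPs) and 60370 of 60624 (hILOs) were matched to a symbol.

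At least 99.9951% of the deposited CPM values of each library were whole multiples of 1 read (tolerance 0.01 reads), which gave back the reads per library. TPM keep no depth. Genotypes at PP 0 h and in hILOs, and times within the 8 WT PP libraries, were compared with limma 3.58.1 (trended eBayes, R 4.3.3), after adding 1 and taking log2, in all genes whose mean reached 1. This scale understates changes of low genes. Calls needed a 1.5-fold change and, after Benjamini-Hochberg adjustment, *p* below 0.05. With 2 libraries a side, 0.33 is the smallest two-sided *p* of an exact permutation test. The study's methods describe wells of a biological replicate as coming from a shared batch of cells, and whether replicate numbers mark such batches across lines or times is not given. The code was tested on simulated data. Floors and read counts cover counting error only. Alternatives were a pseudocount of 0.1, no filter, median-of-ratios scaling, quantile normalization, the replicate number as a block, all PP libraries in one fit, edgeR 4.0.16 and DESeq2 1.42.0 on recovered reads, other distances and ratios, and leaving out each library. The values without the WT libraries that stood apart were added after the data were seen.

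The 10 genes, the lists of relatives and markers and the tests were chosen with earlier results of these data known. Named besides the 10 are *ALKBH5*, the nearest tested neighbour on each side, every called neighbour or relative, the 5 genes most like the 10 and the highest line-restricted genes. Other relatives, neighbours and line-restricted genes were named after their values were seen. Of the marker lists, 1 is not reported here. Positions come from GENCODE v44 and promoters from RefSeq (GRCh38.p14).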

Additional observations from a re-analysis of the deposited data

Results flagged for a closer look

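Of 37 genes named or listed above, 4 lay in opposite directions in 2 settings, with no overlap between libraries. The difference between the settings was not tested for any of them.

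*CLMP* averaged 18.3 CPM in A5-KO and 51.7 CPM in WT PPs at 0 h, but 36.3 TPM in A5-KO and 22.2 TPM in WT hILOs. *HSPB1*, next to *SRRM3*, averaged 46.9 CPM in A5-KO and 79.0 CPM in WT PPs, but 218 TPM in A5-KO and 196 TPM in WT hILOs, where it was not called (limma adjusted *p* = 0.12). *UHRF1* averaged 101 CPM in A5-KO and 85.1 CPM in WT PPs, where it was not called (limma adjusted *p* = 0.16), but 4.74 TPM in A5-KO and 9.53 TPM in WT hILOs. *URB1-AS1*, a long non-coding RNA nearly absent from WT, averaged 0.73 CPM in WT at 3 h against 0.13 CPM at 0 and 1 h, while A5-KO went from 3.37 CPM at 0 and 1 h to 1.78 CPM at 3 h. The WT libraries at 3 h are among those that stood apart.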

How the results depend on the processing

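Of 94 values of the 10 genes recomputed under a pseudocount of 0.1, median-of-ratios scaling or without 1 library, 85 kept their direction and side of the threshold. The 8 that lost the call were hILO values without 1 library, for *MYH14* (-1.91), *SLFN11* (-1.32 to -1.08) and *GLUD2* (-1.30 and -1.22), and *SRRM3* ranged from -0.24 (without A5-KO hILO replicate 2, a reversal) to 0.75 (without replicate 1). The causes were not tested.

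Without a filter, genes called lower numbered 77 in PPs at 0 h (157 with the filter), 187 in hILOs (707), 1008 in WT at 1 h (1778) and 0 in WT at 3 h (5), neighbours called numbered 1 in PPs (3) and 0 in hILOs (7), and relatives called numbered 0 in hILOs (5). More genes are then tested. Without 1 library, genes called lower numbered 123 to 191 in PPs, 96 to 203 in hILOs, 268 to 2114 in WT at 1 h and 0 to 20 in WT at 3 h, where median-of-ratios scaling gave 8. Neighbours called without 1 library were 2 to 3 in PPs and 0 in hILOs, and relatives called were 1 in PPs and 0 in hILOs. Within 100 kb, 4 of 20 neighbours were called in hILOs.

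Under the replicate block, genes called lower numbered 266 in PPs, 385 in hILOs and 0 in WT at 3 h, neighbours called in hILOs 3, and relatives called 3 in PPs and 0 in hILOs. Deviations of same-numbered libraries correlated by 0.17 in PPs at 0 h and -0.01 in hILOs, which does not settle whether the numbers pair the samples. Defining line-restricted genes by 5% or 20% of the other line moved their median percent in WT at 3 h (mean of the 2 libraries) from 13.5% to 11.8% (lost in A5-KO, 5%) and from 14.4% to 9.8% and 20.8% (lost in WT, 5% and 20%). The 4 zinc finger genes among the 10 could not be fitted in hILOs, where depth is unknown.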
